A study of Mus musculus with 183 samples.

Results

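The genes that encode replacement histones were followed in mouse embryonic stem cells (mESCs). They are H2afx, H2afz, H2afv, H2afy, H3f3a, H3f3b, H1f0 and H1fx. They were taken as a fixed list of gene symbols, and all 8 were found among the 53380 genes of the count table. As the contrast served 70 stem-loop histone genes, taken as the symbols that begin with Hist1h, Hist2h, Hist3h or Hist4h. The study measured RNA decay in mESCs grown on gelatin with serum and LIF, by blocking transcription with actinomycin D, and mapped the RNAs bound by decay factors with CRAC, the crosslinking and analysis of cDNAs. The CRAC values, and the RNA-seq levels beside them, came from other lines than the decay experiment. Each line carried a FLAG-Avi tag on its mapped protein, which was AVEN or a decay factor (SKIV2L, XRN1 or MTR4). For mRNA analysis without drug or knockout, the series holds 6 SKIV2L, 5 XRN1, 3 MTR4 and 3 AVEN libraries. The paper also used 3 published MTR4 datasets. The decay experiment held 47 libraries of total RNA depleted of rRNA. They came from clone 5F (Skiv2l fl/fl, Rosa26 CreERT2/-) and clone 7E (Skiv2l fl/fl by the labels of other samples of this clone, without Aven, whose genotype label in these libraries does not name the floxed allele and adds a 3xFLAG-Avi tag on Skiv2l and the locus Rosa26Cre-ERT2/BirA-V6). Each clone was used at day 0 and day 4 of 0.1 µM 4-hydroxytamoxifen (4OHT), which switches on Cre, and after 0 (mock, DMSO), 120, 240 and 360 min of actinomycin D. The mock cells were kept in DMSO for 360 min. All groups had 3 libraries except clone 5F at day 0 and 120 min, which had 2. SKIV2L is the helicase that feeds RNA to the cytoplasmic exosome for 3′-5′ decay, and AVEN is an RNA-binding partner of it. Each genotype was 1 clone, and the replicates are described as technical, so p-values cover only the spread between such libraries. Clone, parental line, tag and loss of Aven cannot be told apart in any comparison between 7E and 5F. The same holds for Skiv2l RNA, which was already lower in 7E before 4OHT.

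Most histone protein is made in S phase from intronless mRNAs that end in a conserved stem-loop instead of a poly(A) tail, and these mRNAs are destroyed when DNA replication stops. Replacement histones are made throughout the cell cycle, mostly from spliced and polyadenylated mRNAs, and are placed into chromatin outside replication. H2A.X (H2afx) is phosphorylated around DNA breaks, H2A.Z (from the gene pair H2afz and H2afv) marks promoters and enhancers, and macroH2A1 (H2afy) is linked with silent chromatin. H3.3, encoded identically by H3f3a and H3f3b, is deposited at active genes and at heterochromatin by separate chaperones. H1f0 encodes the linker histone H1.0, which accumulates in cells that stop dividing, and H1fx encodes the linker histone H1X.

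The 3′ ends of these mRNAs show which of them have the signals of a poly(A) mRNA and which keep a stem-loop. In the Gencode M21 annotation of GRCm38, the transcripts of 6 of the 8 genes (1 transcript each, the one in the CRAC table where listed) held AATAAA or ATTAAA (sense strand) in their last 50 nt, as did 74.6% of all 20673 protein-coding transcripts with a 3′ UTR and 20.9% of 67 stem-loop histone transcripts. H2afy and H3f3b held neither hexamer in that window. Examples are shown for the H2A.X, H3.3 and linker families, each as a stretch of the 3′ UTR with the hexamer in capitals, on chr9:44336035-44336064 (plus strand), chr1:180800832-180800861 (minus) and chr15:79030475-79030504 (plus), respectively.
H2afx: ctaattttATTAAAggatcgtttggttttg
H3f3a: tgaaaaatAATAAAagtaccaatagaagaa
H1f0: aactttaaAATAAAactggaaaggaaaaaa

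H2afx also held a histone stem-loop in its 3′ UTR, which is known to let this gene make a stem-loop mRNA in addition to a longer poly(A) mRNA. The stem-loop lay 46 nt after the stop codon and 822 nt before the annotated end, at chr9:44335235-44335260 on the plus strand. It was the 1 member of 8 with a match to the stem-loop consensus in the 3′ UTR, and 60 of the 20673 transcripts (0.29%) had one. Downstream of the stop codon, 65 of 67 stem-loop histone genes had a match within 150 nt of genomic sequence. The H2afx element is set beside those of Hist1h1a, Hist1h1d and Hist1h1b, the stem-loop genes with the highest mean counts, at chr13:23764387-23764412 (plus), chr13:23555782-23555807 (plus) and chr13:21779832-21779857 (minus), with both arms and the loop in capitals.
H2afx: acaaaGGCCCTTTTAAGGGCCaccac
Hist1h1a: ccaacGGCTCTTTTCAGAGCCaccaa
Hist1h1d: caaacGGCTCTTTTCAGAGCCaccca
Hist1h1b: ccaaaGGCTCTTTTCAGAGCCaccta
Gene counts add up all forms of an mRNA, so the stem-loop and poly(A) forms of H2afx cannot be separated here. H2afx, H1f0 and H1fx have 1 exon each, as 97.0% of the stem-loop genes do and 4.84% of all coding transcripts do, whereas H2afy has 9, H3f3b 6, H2afz and H2afv 5 and H3f3a 4. Their 3′ UTRs ran from 369 nt in H1fx to 2245 nt in H3f3a, against a median of 89 nt for the stem-loop genes.

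The libraries held 24440935 to 34114250 gene counts each. Mock Skiv2l counts, summed over a gene from which 4OHT removes only some exons, did not fall in the 5F libraries labelled day 4 (148 ± 0.29 CPM, counts scaled to the library total, at day 0 and 143 ± 10.4 at day 4, SD, n = 3), while in 7E they fell from 33.6 ± 2.46 to 13.1 ± 0.703 CPM. Skiv2l was thus lower in 7E than in 5F already at day 0 (-2.10 ± 0.06 on the log2 scale, SE). Aven stood at 35.6 ± 0.481 CPM in 5F and 2.32 ± 0.582 CPM in 7E at day 0. All 8 markers of naive mESCs were above 1 CPM in every group, and the summed level of 6 primitive endoderm markers was 1267 to 1315 CPM in 5F and 262 to 271 CPM in 7E at day 0. The 6 markers of fibroblasts summed to at most 9.52 CPM in any mock library. The ratio of mRNA to ERCC spike-in counts was 151 to 156 in the mock libraries of 7E at day 4 and 312 to 363 in the other mock groups. There were 6 libraries with 0.71% to 0.806% mitochondrial counts, and the other 41 had 1.09% to 3.99%. In all 6, H2afx, H3f3b and H1fx were below both other libraries of their group, and H2afv was above both.

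Levels differed widely between the 8 mRNAs. In mock 5F cells at day 0, H2afx reached 121 ± 4.32 and H3f3b 115 ± 1.64 CPM per kb of exon (SD, n = 3), a difference somewhat above the SD of H2afx. H2afv followed at 41.4 ± 1.43, H2afy at 21.4 ± 0.255, H2afz at 19.2 ± 1.72 and H1f0 at 17.6 ± 0.572 CPM per kb, and H2afz and H1f0 did not differ beyond the SD of H2afz. H3f3a stood at 7.84 ± 0.991 and H1fx, the rarest, at 3.35 ± 0.805 CPM per kb, from 93, 177 and 104 raw reads. Between the genes of a pair that encode the same or nearly the same protein, H3f3b was thus far above H3f3a and H2afv above H2afz on this scale.

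Unique mapping affects these levels unevenly. Of the 50-nt stretches of the H2afz transcript, 83.5% occur elsewhere in the genome, at 6 loci of which 4 are annotated pseudogenes. The share was 32.5% for H3f3a (51 loci), 25.8% for H3f3b (3 loci) and 6.14% for H2afx (16 loci, 15 of them in histone genes), and none of the 50-nt stretches of H2afy, H2afv, H1f0 or H1fx were repeated. Per 1000 unique 50-nt positions of 1 transcript, H2afz (203 ± 18.2 CPM) and H3f3b (186 ± 2.67 CPM) came first, and H2afx (134 ± 4.77), H2afy (72.8 ± 0.871) and H2afv (42.7 ± 1.47) followed. H2afz therefore moved up to the top with the length used, so the order of H2afz and H2afv is uncertain. H2afx and H3f3b changed order too, as did H2afy and H2afv, which have no repeated stretches. The exons of H2afy together span 6809 nt, and its 1 transcript has 2046 nt. H3f3b was above H3f3a on both scales (H3f3a at 14.6 ± 1.84 CPM per 1000 positions).

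**Figure D1:**
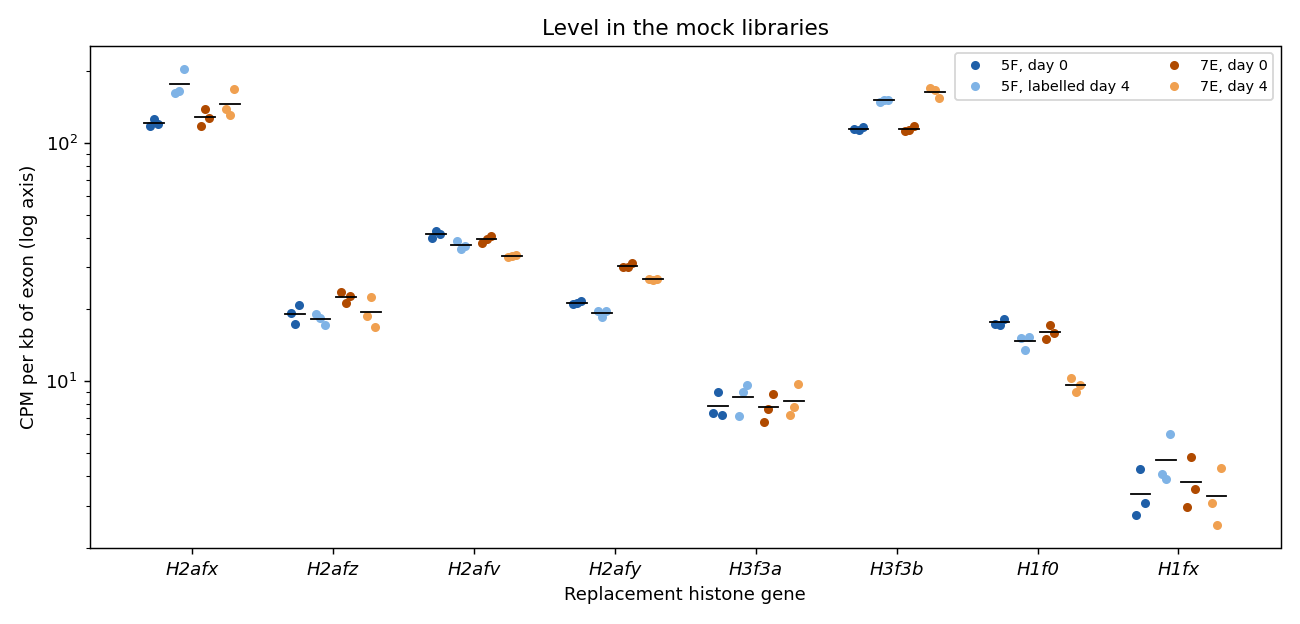
Level of each replacement histone mRNA in the 12 mock libraries, as CPM per kb of exon on a log axis, with 1 point per library and a bar at each mean of 3. At day 0 H2afx and H3f3b have means of 115 to 128 CPM per kb and H1fx of 3.35 to 3.77, and the points of H2afx and H3f3b at day 4 lie above those at day 0 in clone 5F.

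After transcription was blocked, most replacement histone mRNAs were lost slowly. Counts were scaled with spike-ins per time point, and a straight line gave a slope in log2 per hour, where a more negative slope is faster decay. In 5F at day 0 the 8 slopes ran from -0.27 (H3f3b) to -0.06 (H1f0), with a median of -0.13 and a half-life at that median of 473 min. The median of all 18623 genes was -0.22 (269 min), and 7 of the 8 were slower than it. The 61 stem-loop histone genes that were tested had a median slope of -1.55 (38.7 min), and all 61 decayed faster than the fastest replacement histone mRNA. Their course was not straight, with medians of -3.45 log2 per hour up to 120 min and -0.20 from 120 to 360 min. At 120 min a median of 0.733% was left, so the half-life of 38.7 min describes neither window. After 360 min, 58.2% of the mock level was left at the median of the 8, 38.9% at the median of all genes and 0.358% at the median of the stem-loop genes.

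H2afx, the member with a stem-loop, was the second fastest in 5F at day 0. Its slope was -0.21 ± 0.03 (SE), a half-life of 291 min (252 to 345 min at 1 SE either way), near the median of all genes. The libraries kept 54.5% and 65.2% of the mock mean at 120 min and 44.0%, 43.2% and 38.5% at 360 min. Its course bent as that of the median gene did, with -0.37 log2 per hour up to 120 min and -0.13 from 120 to 360 min, against -0.39 and -0.13 for the median of all genes. Hist1h1a, by contrast, fell at -3.62 log2 per hour up to 120 min, when 0.7% and 0.6% of its mock level was left in the 2 libraries.

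The pair of H2A.Z genes differed in slope. H2afv, one of the slower members, had a slope of -0.08 ± 0.01 and a half-life of 733 min (644 to 849 min), with 70.5%, 67.5% and 73.6% left at 360 min. H2afz had a slope of -0.18 ± 0.02 and a half-life of 330 min (291 to 381 min), with 45.3%, 48.6% and 48.8% left, so that no library of one overlapped the other. The macroH2A1 mRNA H2afy had a slope of -0.09 ± 0.01, a half-life of 649 min (600 to 707 min) and 67.2%, 65.5% and 70.5% left at 360 min.

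The H3.3 pair also split. H3f3b was the fastest of the 8 at -0.27 ± 0.02, with a half-life of 223 min (206 to 244 min) and 33.6%, 33.4% and 31.7% left at 360 min. H3f3a had a slope of -0.16 ± 0.03, a half-life of 372 min (318 to 450 min) and 51.9%, 45.2% and 48.6% left, above every H3f3b library. The H3f3b loss kept the same pace in both windows (-0.26 and -0.27 log2 per hour), while the median gene slowed.

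The linker histone mRNA H1f0 had the shallowest slope, -0.06 ± 0.02, and a half-life of 993 min (756 to 1449 min), which overlaps those of H2afv and H1fx. Its 5F day 0 libraries kept 72.6%, 75.8% and 73.1% at 360 min. H1fx had a slope of -0.08 ± 0.06, and its libraries scattered from 57.9% to 149% at 240 min, so its half-life of 746 min (424 to 3121 min at 1 SE) is poorly fixed. The half-lives over 360 min are extrapolated beyond the last time point.

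In the other 3 conditions the same contrast with the stem-loop genes was seen. The median slope of the 8 was -0.16 in the 5F libraries labelled day 4, -0.17 in 7E at day 0 and -0.21 in 7E at day 4. With each library's own spike-ins the last of these was -0.18. The median of all genes was -0.22 to -0.23, but the scaling within each time point holds it nearly equal between conditions. Members slower than the median of all genes numbered 6, 6 and 4 of 8. Of the 61 stem-loop genes, 60, 61 and 61 were faster than the fastest member, which was H3f3b each time with half-lives of 178, 222 and 178 min. The stem-loop median was -0.79 in the 5F libraries labelled day 4, -1.53 in 7E at day 0 and -0.80 in 7E at day 4. These courses bent too. Up to 120 min the stem-loop medians were -1.49, -2.87 and -1.58 log2 per hour, and from 120 to 360 min -0.43, -0.51 and -0.40. At 120 min the summed stem-loop counts were at 1.05% of mock in 5F at day 0 and 22.2% in the libraries labelled day 4, and at 3.25% and 21.9% in 7E. The median share of the 8 at 120 min was 78.3% and 66.7% in 5F, and 76.9% and 63.3% in 7E.

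**Figure D2:**
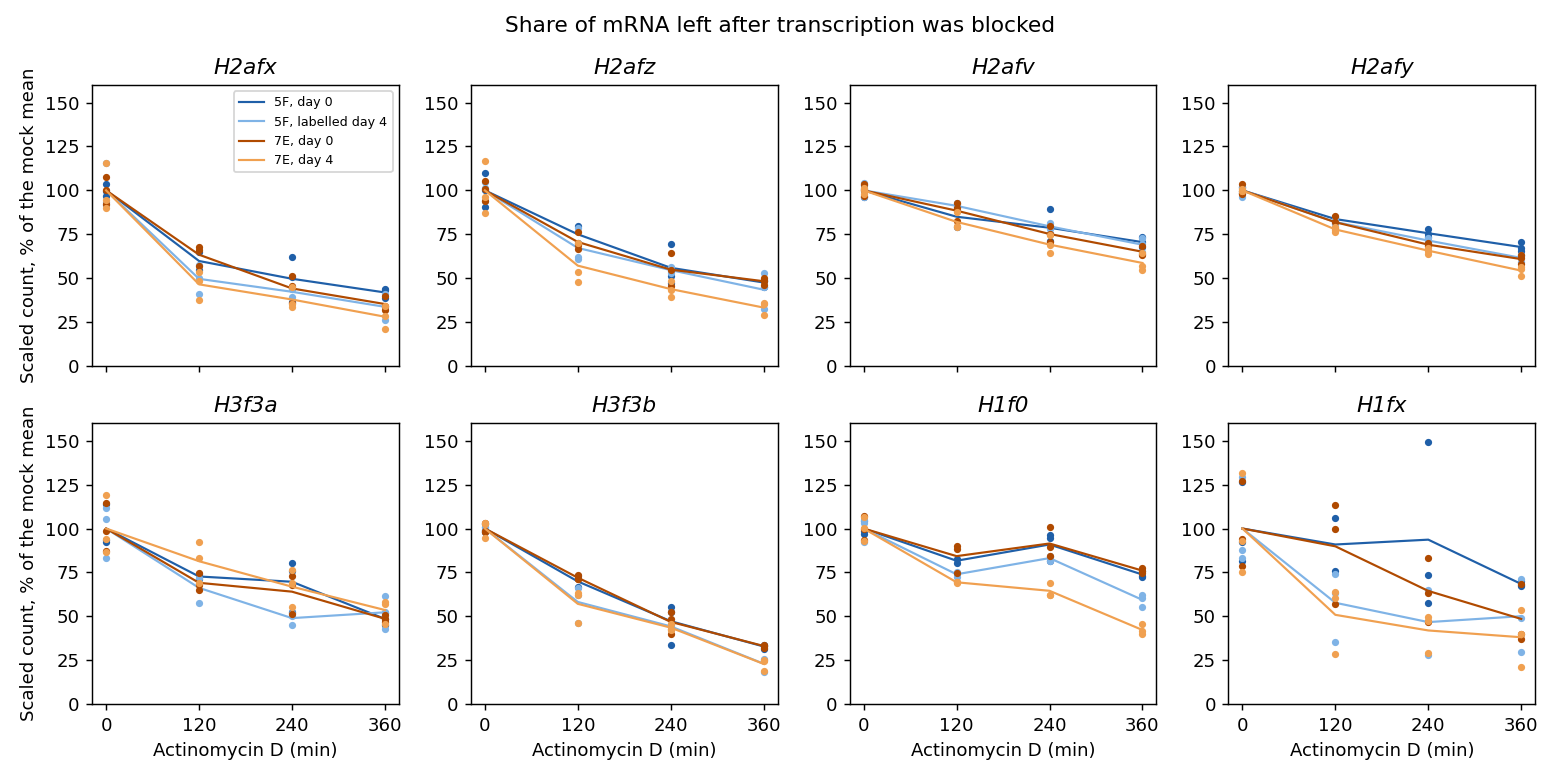
Scaled counts of the 8 replacement histone mRNAs after 0 to 360 min of actinomycin D, in percent of the mock mean of the same clone and day, with 1 point per library and lines through the means. H2afv, H2afy and H1f0 keep at least 58.0% of their mock level at 360 min in every day 0 library, and the H1f0 libraries of 7E at day 4 end between 39.9% and 45.4%.

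**Figure D3:**
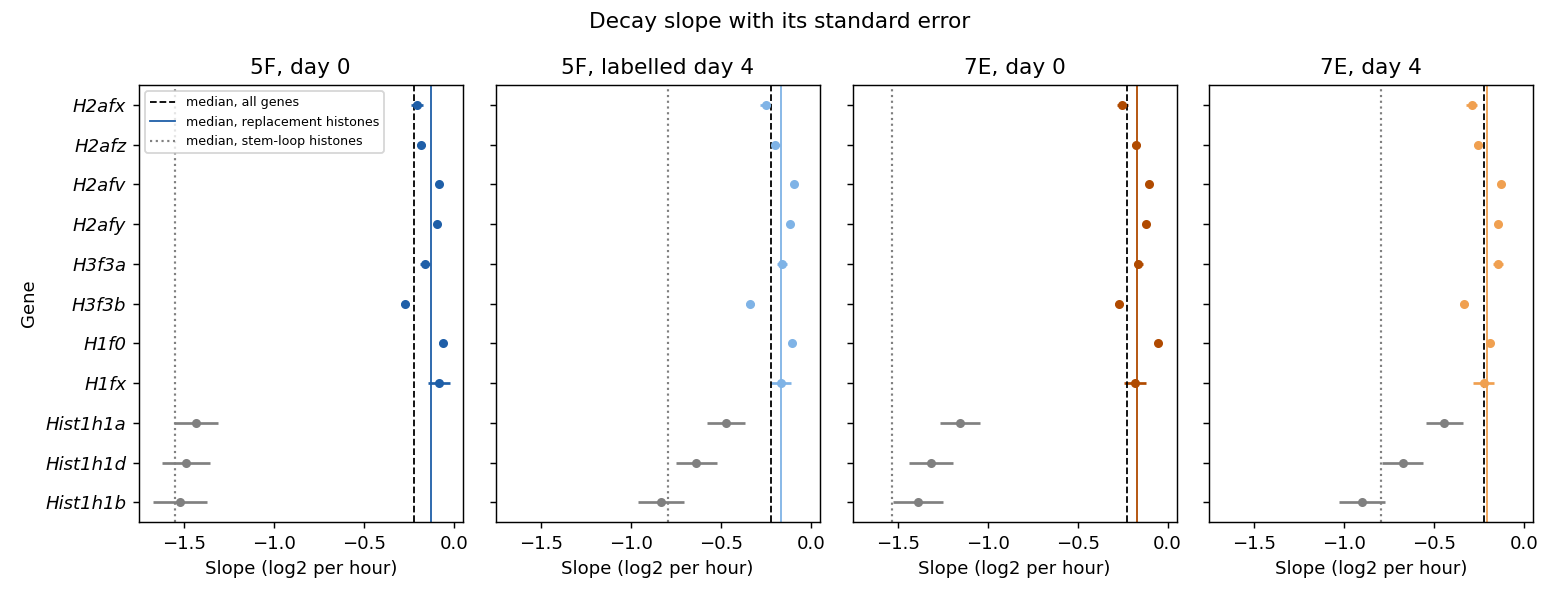
Fitted decay slope in log2 per hour with its SE for the 8 replacement histone mRNAs (coloured) and 3 stem-loop histone mRNAs (grey) in each clone and day, with lines at the medians of all genes, of the 8 and of 61 stem-loop genes. The grey points move right at day 4 in both clones, whereas the coloured points stay between -0.34 and -0.05.

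The first comparison asked whether 4OHT, given to delete part of Skiv2l, slowed the decay of these mRNAs. In 5F it was not detectable: 0 of 8 members changed slope in the quasi-likelihood test of edgeR, with p adjusted over all genes by the Benjamini-Hochberg method. Of all 17901 genes 0.196% were called, 0.134% as slower and 0.0614% as faster (24 and 11 genes, against 17 and 27 with DESeq2). Without adjustment 0 of the 8 and 676 genes had a p below the threshold, and DESeq2 called 44 genes and 0 of the 8. The fitted changes ran from -0.08 (H1fx, SE 0.08) to 0.00 (H3f3a, SE 0.04) log2 per hour. H3f3b changed by -0.07 ± 0.03 (SE, adjusted p = 1, edgeR), with 33.6%, 33.4% and 31.7% left at 360 min at day 0 and 25.7%, 25.0% and 18.5% in the libraries labelled day 4. The last of these is a library with a low share of mitochondrial counts, and without the 6 such libraries the H3f3b change was -0.06 (adjusted p = 0.422, edgeR). By the same test 20 of 61 stem-loop genes decayed more slowly in the libraries labelled day 4, Hist1h1a by +0.97 ± 0.17 log2 per hour, with 0.3% left at 360 min in each day 0 library and 12.5% to 14.4% later. That count fell to 3, 3 and 2 of 61 without replicate 1, 2 or 3, and without the mock libraries 0 of 59 were slower and 5 faster.

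In 7E, 1 of 8 members changed slope, where 0.896% of 17417 genes were called, 0.488% as faster and 0.408% as slower. It was H1f0, by -0.14 ± 0.03 log2 per hour (adjusted p = 0.00629, edgeR). The half-life was 1126 min at day 0 (832 to 1740 min at 1 SE, extrapolated beyond 360 min) and 314 min at day 4 (285 to 349 min). The libraries kept 74.7%, 76.1% and 77.3% at 360 min at day 0 and 39.9%, 41.5% and 45.4% at day 4, with no overlap there, at 120 min or at 240 min. The call was lost without replicate 1, 2 or 3 (adjusted p = 0.378, 0.0757 and 0.197, with changes of -0.12 to -0.15). It was also lost with each library's own spike-ins (-0.12, adjusted p = 0.231), without the 360 min libraries (-0.13, adjusted p = 0.413) and without the mock libraries (-0.14, adjusted p = 0.103). In 5F the H1f0 change was -0.04 ± 0.03 (adjusted p = 1). The other 7 members of 7E changed by -0.08 (H2afz, SE 0.03, adjusted p = 0.435) to +0.01 (H3f3a, SE 0.03, adjusted p = 0.978), while 29 of 61 stem-loop genes decayed more slowly, a count of 9, 5 and 9 without replicate 1, 2 or 3 and of 11 of 58 without the mock libraries.

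Between clones at day 0, 0 of 8 members differed in slope by the same test, where 0.0376% of 18623 genes were called (0.0322% as slower and 0.00537% as faster in 7E), and DESeq2 called 27 genes and 0 of the 8. Without adjustment 847 genes and 1 of the 8, H2afy, had a p below the threshold (-0.03 ± 0.01 log2 per hour in 7E against 5F). Libraries of the 2 clones with the same replicate number deviated together, and in a fit with a block for each such pair 3 members decayed faster in 7E. These were H2afx (-0.05, adjusted p = 0.00345), H2afy (-0.03, adjusted p = 0.0047) and H1fx (-0.09, adjusted p = 0.0466), in a fit that called 1800 genes (9.67% of all).

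No difference between clones in the change of slope with 4OHT was detectable for any member, and 0% of 18623 genes were called. In simulated data, where every gene had the same fixed spread, this test recovered 3% of genes with a difference of 0.1 log2 per hour. Differences of that size could therefore be missed. The SE of the difference ran from 0.015 (H2afy) to 0.118 (H1fx), so the simulated rate does not hold for each member. Without adjustment 477 genes and 1 member, H1f0, had a p below the threshold, and DESeq2 called 4 genes and 0 members. The H1f0 difference was -0.09 ± 0.04 log2 per hour (adjusted p = 1, edgeR). With the block for paired libraries it was -0.09 (adjusted p = 0.0037), the 1 member called among 486 genes (2.61% of all).

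Levels in mock cells moved with 4OHT in both directions. In the 5F libraries labelled day 4, H2afx and H3f3b rose and H1f0 fell, so that 3 of 8 members were called where 22.6% of 17209 genes were (11.9% higher, 10.8% lower). In bulk samples, fewer cells with an mRNA and less of it per cell cannot be told apart.

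H3f3b had 16260, 16068 and 16742 scaled counts at day 0 and 21752, 22216 and 22237 in the libraries labelled day 4. It rose by 0.43 ± 0.04 on the log2 scale (adjusted p = 1.07e-07, edgeR). H2afx went from 7806, 8329 and 8034 to 11041, 11268 and 13925 scaled counts, a rise of 0.58 ± 0.08 (adjusted p = 1.62e-05). For both genes every later library was above every day 0 library.

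H1f0 went from 1714, 1686 and 1817 to 1532, 1366 and 1553 scaled counts and fell by 0.23 ± 0.07 on the log2 scale (adjusted p = 0.0158, edgeR). This call was lost without 5F day 0 replicate 3 (adjusted p = 0.0815) or 5F day 4 replicate 2 (adjusted p = 0.0911). The remaining members did not pass. H2afy changed by -0.11 ± 0.04 (adjusted p = 0.0523) and H2afv by -0.12 ± 0.05 (adjusted p = 0.0799), both without overlap between days, and H1fx changed by +0.49 ± 0.20 (adjusted p = 0.0825). H2afy passed with DESeq2 (adjusted p = 0.0439), with TMM scaling (0.0451) and without 7E day 4 replicate 3 (0.0475). H1fx passed without 5F day 0 replicate 2 (+0.71, adjusted p = 0.0209), whose 177 reads were far above the 93 and 104 of the other day 0 libraries, without 7E day 4 replicate 3 (0.0452), without the filter on low counts (+0.49, adjusted p = 0.00238) and with only the 5F libraries in the fit (+0.49, adjusted p = 0.0349).

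In 7E, H3f3b and H2afx again rose, and H1f0, H2afv and H2afy fell, relative to the other genes. These 5 of 8 were called where 39.9% of genes were (20.5% higher, 19.4% lower). H3f3b went from 16443, 16504 and 17279 to 25381, 25132 and 23183 scaled counts (+0.55 ± 0.04, adjusted p = 2.76e-10, edgeR). H1f0 went from 1507, 1731 and 1608 to 1063, 931 and 1005, a change of -0.69 ± 0.07 (adjusted p = 3.3e-08), with no overlap between days.

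H2afv fell by 0.20 ± 0.05 (adjusted p = 0.00265) and H2afy by 0.15 ± 0.04 (adjusted p = 0.00439) on the log2 scale, each with every day 4 library below every day 0 library. H2afx changed by +0.23 ± 0.08 (adjusted p = 0.025), with 7994, 9345 and 8694 scaled counts at day 0 and 9643, 9186 and 11755 at day 4, which overlap. DESeq2 did not call it (adjusted p = 0.124), nor did fits without 7E day 0 replicate 1 (adjusted p = 0.131), 7E day 0 replicate 3 (0.0611) or 7E day 4 replicate 3 (+0.12, adjusted p = 0.22). H2afz changed by -0.18 ± 0.08 (adjusted p = 0.0926) and passed without 7E day 4 replicate 2 (-0.31, adjusted p = 0.00323) and without the filter on low counts (-0.18, adjusted p = 0.0281).

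These 7E changes are relative to all genes. With each library's own spike-ins the median of all genes shifted by -1.10 in 7E, and all 8 members were then lower at day 4, from -0.55 for H3f3b to -1.79 for H1f0. Relative to that median, H3f3b stood at +0.56, H2afx at +0.24, H1f0 at -0.69, H2afv at -0.19 and H2afy at -0.15. In 5F the same scaling shifted the median by -0.07, and H2afy (-0.18, adjusted p = 0.0154) and H2afv (-0.19, adjusted p = 0.0268) then passed as lower. Stem-loop genes rose in both clones on the first scaling, 56 of 61 in 5F and 35 of 61 in 7E. With own spike-ins 55 of 61 were higher and 0 lower in 5F, where 22.4% of all genes were called. In 7E 3 were then higher and 54 lower. On that scaling 89.5% of 17209 genes were called in 7E, 270 as higher and 15132 as lower. The 7E counts of stem-loop genes and members are near that share. Markers moved too in both clones. In mock 5F libraries the summed naive mESC markers went from 3257 to 3314 CPM at day 0 to 2989 to 3113 CPM in those labelled day 4. Primitive endoderm markers went from 1267 to 1315 CPM to 1160 to 1259 CPM. Neural markers went from 84.5 to 86.9 CPM to 103 to 112 CPM, and fibroblast markers from 5.79 to 6.54 CPM to 7.96 to 9.52 CPM. In 7E, of those tested, 0 of 8 naive mESC markers were higher and 7 lower. There 2 of 6 primitive endoderm markers were higher and 0 lower, and 3 of 4 fibroblast markers were higher and 0 lower. Of 3 neural markers 1 was higher (Nes, +1.45 ± 0.05) and 2 lower (Sox1, -2.05 ± 0.13, and Pax6, -0.32 ± 0.05), and the part of such shifts in the histone levels was not tested.

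**Figure D4:**
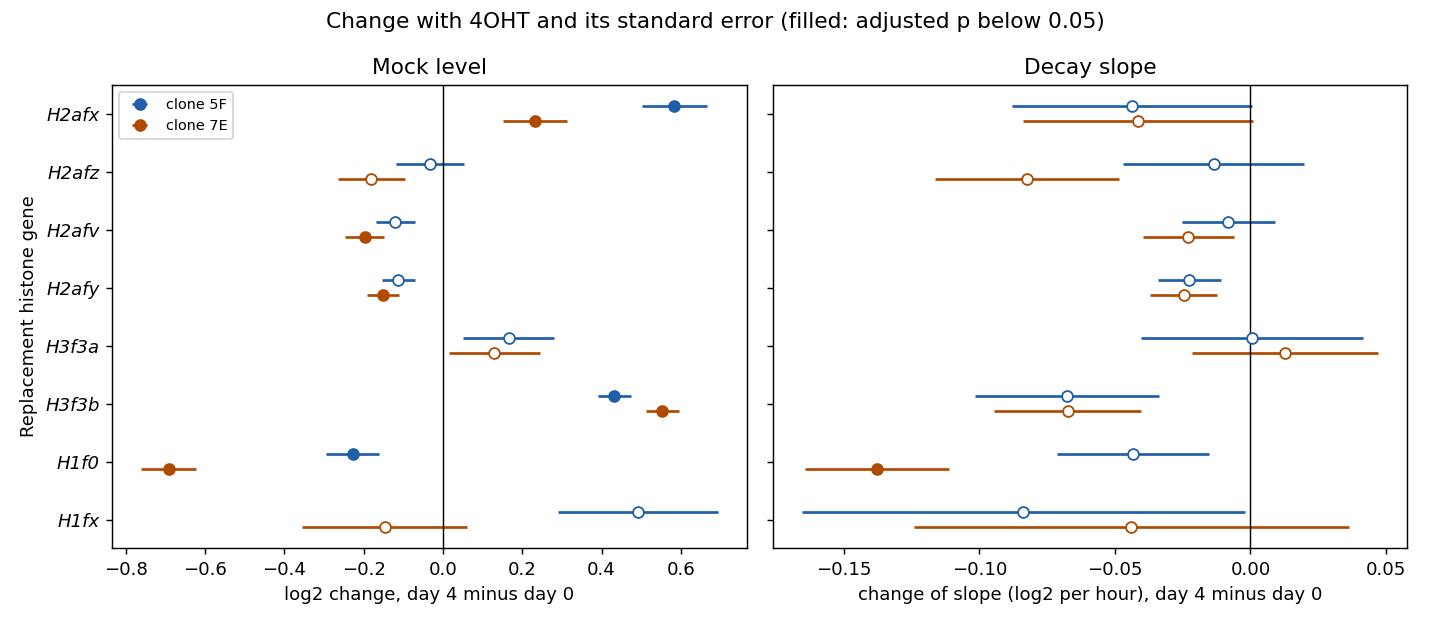
Change with 4OHT (day 4 minus day 0) of the mock level and of the decay slope for the 8 replacement histone mRNAs, in log2 units with the SE as bars, blue for clone 5F and orange for 7E, and filled where edgeR's adjusted p is below 0.05. H3f3b and H2afx are filled to the right and H1f0 to the left in both clones at the mock level, and the 7E value of H1f0 (-0.14) is the filled point among the slopes.

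At day 0, H2afy was higher in 7E than in 5F, and H2afz passed as higher too. H2afy stood at 6880, 6935 and 7115 scaled counts in 5F and 10067, 9975 and 10536 in 7E (+0.55 ± 0.04, adjusted p = 1.87e-10, edgeR), without overlap at any time point. H2afz had 1635, 1477 and 1792 in 5F and 2071, 1853 and 1983 in 7E (+0.27 ± 0.08, adjusted p = 0.014). These 2 of 8 compare with 36.2% of all genes called. With the block for paired libraries, which called 46.7% of all genes, H2afx passed too (+0.11, adjusted p = 0.00107, against 0.326 without it). The H2afz call was lost without 5F day 0 replicate 2 (adjusted p = 0.0857) or 7E day 0 replicate 1 (0.0674), and with own spike-ins (+0.11, adjusted p = 0.255). The other macroH2A gene, H2afy2, was also higher in 7E (+0.76 ± 0.06, adjusted p = 1.38e-09). The primitive endoderm markers were lower in 7E for 6 of 6, with a median of -3.16, and their part in the histone levels was not tested.

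The change in mock level with 4OHT differed between clones for 2 of 8 members, where 11.9% of genes were called and 6.65% as higher and 5.29% as lower in 7E. H1f0 fell further in 7E, by a difference of -0.46 ± 0.10 (adjusted p = 0.00201, edgeR), a call kept under all 18 alternatives run. With own spike-ins the median of all genes shifted by -1.03, and H1f0 stood at -0.46 and H2afx at -0.35 relative to it. H2afx rose less in 7E (-0.35 ± 0.11, adjusted p = 0.047). Its call was lost under 8 of 18 alternatives, which were DESeq2 (adjusted p = 0.177) and the fits without 5F day 0 replicate 1 (0.104) or 3 (0.0901), 5F day 4 replicate 3 (-0.24, 0.152), 7E day 0 replicate 2 (0.131) or 3 (0.0827) and 7E day 4 replicate 1 (0.13) or 2 (0.121). With the block for paired libraries 4 members and 24.1% of all genes were called, H1f0 and H2afx together with H3f3b (+0.12, adjusted p = 0.00666) and H1fx (-0.66, adjusted p = 0.00166). Without the block H1fx passed only without 7E day 4 replicate 3 (-0.89, adjusted p = 0.0327) and without the filter on low counts (-0.64, adjusted p = 0.0127) among the count-scaled fits run.

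Genes that place or modify these histones moved in both directions. Of 22 subunits of the complexes that exchange H2A.Z, 6 were higher and 3 lower in the mock 5F libraries labelled day 4, where 22.6% of all genes were called, led by the ATPase gene Srcap (+0.71 ± 0.10, adjusted p = 1.16e-05, edgeR) and the scaffold gene Trrap (+0.48 ± 0.07, adjusted p = 4.64e-05). In 7E, where 39.9% of all genes were called, 4 were higher and 4 lower, led by Actr8 (-0.21 ± 0.05), and the Srcap change was the 1 of 22 that differed between clones (-0.63 ± 0.13, adjusted p = 0.0023). None of the 22 changed in decay slope in either clone.

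Of 10 chaperones of H3.3 and CENP-A, 1 was higher and 1 lower in 5F, and 2 were higher and 3 lower in 7E. These counts and those below stand beside 22.6% of all genes called in 5F and 39.9% in 7E. The chaperone counts are near those shares. Asf1b, a chaperone of H3-H4 in dividing cells, was lower in both (-0.33 ± 0.06 in 5F and -0.38 ± 0.06 in 7E), and Atrx, which places H3.3 in heterochromatin, was higher in 7E (+0.26 ± 0.05). Of 7 partners of H2A.X and linker histones, Mdc1, which reads phosphorylated H2A.X, was higher in 5F (+0.22 ± 0.06) and Ssrp1, of the FACT complex, lower (-0.14 ± 0.04), while in 7E 0 were higher and 2 lower. Of 8 replication genes, 0 were higher and 3 and 5 were lower in 5F and 7E, led by Cdc6, a loader of the replicative helicase (-0.34 ± 0.05 and -0.35 ± 0.05). Mcm6, a subunit of that helicase, was the 1 of these that changed slope, in 7E (-0.05 ± 0.01 log2 per hour, adjusted p = 0.0252).

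Across the 16 group means, H2afv varied most like other genes. Bccip (Pearson r = 0.99) and Cox6b1 (0.99) came closest, and 705 of 7047 genes exceeded r = 0.9. H2afy was closest to Tpd52 (0.99) and Ddx39 (0.99), with 170 genes above r = 0.9, and H1f0 to Pclaf (0.96) and Hibadh (0.96), with 67. H3f3b was closest to Notch2 (0.95) and Spen (0.92). For H2afx (Prx, 0.83), H2afz (Stk38, 0.89), H3f3a (Gnai1, 0.90) and H1fx (Ube2k, 0.90) the closest gene stayed at or below 0.90. Among the 8 the closest pair was H1f0 with H1fx (0.80), while the H3.3 pair was at -0.13 and the H2A.Z pair at 0.31. The group means share libraries' depth and composition, so these values are descriptive.

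CRAC compared how the same mRNA was shared among 3 decay factors. The relative binding of an mRNA is its pooled and scaled read count for 1 protein over the sum for SKIV2L, XRN1 (the cytoplasmic 5′-3′ exonuclease) and MTR4 (the nuclear exosome helicase). The values have no replicate error, and 7 of the 8 members were among the 7240 mRNAs listed. H3f3a was not listed. SKIV2L took the largest part of 4 members, MTR4 of 2 and XRN1 of 1. How often each protein takes the largest part among all 7240 mRNAs was not counted, so no preference of the members follows.

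SKIV2L binding was highest on H2afy (0.484, percentile 86.5 of all mRNAs), H2afz (0.478, percentile 85.9), H2afv (0.401) and H2afx (0.396), all core histone variants of the H2A family. The median of the 7 was 0.396, against 0.267 for all mRNAs and 0.534 for 50 stem-loop histone mRNAs, of which 32 were above every member. H2afx, with its stem-loop, was thus below 38 of the 50. Hist1h1a, Hist1h1d and Hist1h1b had 0.671, 0.696 and 0.631.

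H3f3b differed from the H2A variants in its share of XRN1 (0.440, percentile 71.9), with 0.277 for SKIV2L. For XRN1, 2 of 50 stem-loop mRNAs were above it, and their median was 0.178. The linker histone mRNAs were bound most by MTR4, H1f0 at 0.604 (percentile 89.1) and H1fx at 0.520 (percentile 81.9), and H1f0 had the lowest SKIV2L share of the 7 (0.125, percentile 13.1). H1fx had an RNA-seq level of only 4.04 RPKM, and its SKIV2L share of 0.172 stood at 0.307 after the correction for its RPKM in the tagged line against the median of the lines, the largest such move among the members.

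AVEN, scaled to the same sum, was lower on the members than on the stem-loop mRNAs (medians 0.272 and 0.436, and 0.295 for all mRNAs). H2afv was the member with the highest relative AVEN binding (0.518, percentile 89.3) and H1f0 had the lowest (0.116, percentile 7.79). With 7 mRNAs no relation between binding and decay was computed.

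**Figure D5:**
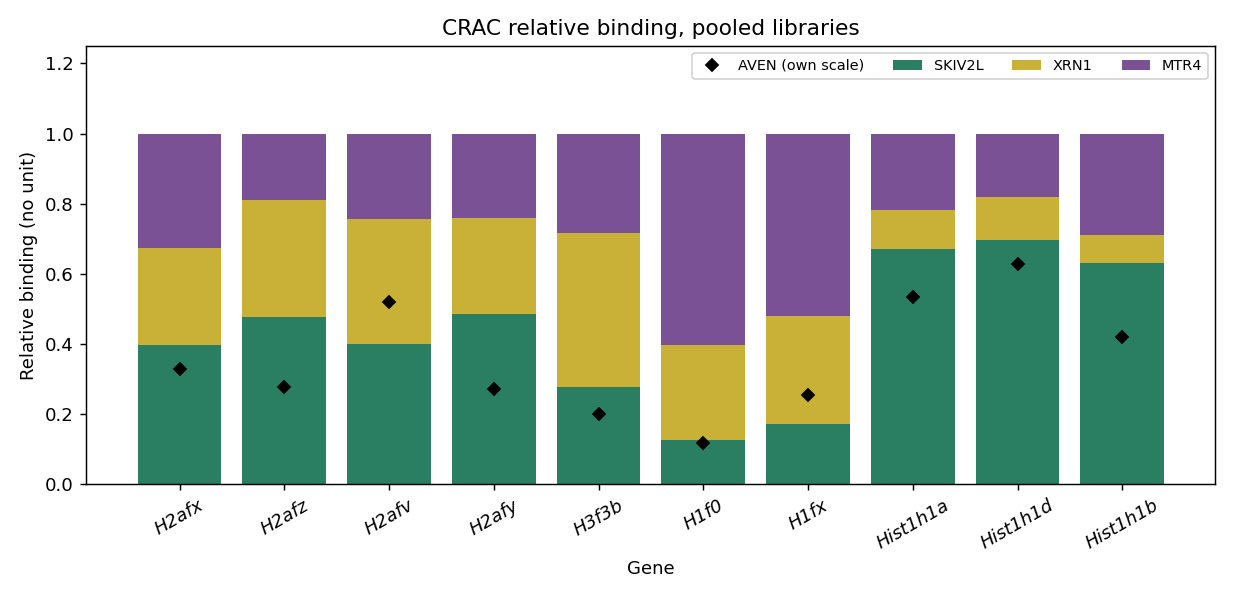
Relative CRAC binding (no unit, pooled libraries) of SKIV2L, XRN1 and MTR4, stacked to 1, for the 7 listed replacement histone mRNAs and 3 stem-loop histone mRNAs, with AVEN on its own scale as diamonds. The SKIV2L part is 0.125 to 0.484 in the replacement histones and 0.631 to 0.696 in the stem-loop histones shown, and the MTR4 part is largest in H1f0.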

How the data were processed

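The authors aligned 50-nt single-end reads of unstranded TruSeq libraries uniquely to GRCm38 with ERCC spike-ins (STAR, at most 3 mismatches) and deposited raw counts per Gencode M16 gene. Antisense and overlapping genes can therefore share reads, and repeated stretches of a transcript go uncounted. The authors' deposited CRAC ratios (relative binding) come from pooled libraries, the deposited RPKM values from RNA-seq of the tagged lines, and a deposited score corrects each ratio for the RPKM in that protein's line relative to the median of the lines. The deposited log2 fold changes, adjusted p-values and half-lives are the authors' own comparisons and were not used. Depth was 24440935 to 34114250 gene counts per library, which for H1fx means 86 to 206 reads in a mock library. Each count column was matched to its sample, and 0 were left unused.

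The main test was the quasi-likelihood test of edgeR 4.0.16 in R 4.3.3 (filterByExpr, Benjamini-Hochberg over all genes tested, threshold 0.05), and DESeq2 1.42.0 was an alternative. Size factors were taken within each time point, and each time point then got 1 factor from the spike-ins (1, 0.649, 0.531 and 0.438), the median mRNA to ERCC ratio over 34 of 92 ERCC sequences relative to mock. The decay model had a line in hours per clone and day, and the mock model 4 groups of 3. Half-life is 60 min divided by the size of the slope in log2 per hour. CPM scales counts to the gene total of each library. Alternatives were own spike-ins, TMM, no filter, a replicate block, and leaving out time points, replicates or libraries. Leaving out the 6 libraries with under 1% mitochondrial counts and a block of paired libraries were added after the data were seen. Same-numbered libraries of both clones at the same day and time deviated together in 11 of 11 pairs at day 0 (lowest correlation 0.139) and 12 of 12 at day 4 (lowest 0.207). The numbers paired the clones on this evidence, although no label states a shared batch. Days were not taken as paired, since 7 of 11 pairs in 5F and 6 of 12 in 7E were over 0.1 (medians 0.18 and 0.169, against -0.302 and -0.071 for other numbers) and 0 of 3 of the mock pairs in each clone. On simulated data 100% of genes with a slope change of 0.25 log2 per hour and 44.5% with 0.1 were recovered for 5F, and 60.5% with a mock change of 0.5 log2 but 0% with 0.25. For differences between clones it was 97% and 3% for slopes of these sizes, and 14% and 0% for mock levels. Every simulated gene had the same fixed spread, so these rates are not the power for single members. The mock fits of the real data called some smaller changes, such as H2afy in 7E (-0.15 ± 0.04, adjusted p = 0.00439, edgeR). Sequences came from Gencode M21 transcripts and GRCm38. Not every sequence found is reported here. The stem-loop was searched as the histone stem-loop consensus of 16 nt, sense strand only. The members and gene lists were chosen with earlier results of these data known. Genes named are every member, Skiv2l and Aven, the 2 genes most like each member, up to 3 genes of each list with the smallest adjusted p, and the 3 stem-loop genes with the highest mean count.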

Additional observations from a re-analysis of the deposited data

Results flagged for a closer look

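For 2 of the 8 mRNAs the change in mock level with 4OHT differed between the clones. The difference, 7E minus 5F, was -0.46 on the log2 scale for H1f0, which fell by 0.23 in 5F and by 0.69 in 7E. It was -0.35 for H2afx, which rose by 0.58 in 5F and by 0.23 in 7E. The adjusted p-values were 0.00201 and 0.047 (edgeR), and only the H1f0 call held under all 18 alternatives run. The day 4 mock libraries of 7E also had a lower ratio of mRNA to spike-in counts (151 to 156, against 312 to 363 in the other mock groups), and its part in these differences was not tested. Groups of 3 are too small for the check of single outlying libraries, which was not run.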

How the results depend on the processing

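Of 64 results on single members, 27 changed sign under some alternative, 2 of them among the 13 that were called. These 2 were the 7E level changes of H2afx and H3f3b, which turned only with each library's own spike-ins. The median of all genes shifted by -1.10 there, and relative to it H2afx stood at +0.24 and H3f3b at +0.56. The cause of the sign changes was not tested.
With each library's own spike-ins, the 7E level changes turned for H2afx (-0.87), H3f3a (-0.97) and H3f3b (-0.55), and called members rose to 8 and called genes to 15402. The difference between clones turned for H3f3b (-0.91), with 8 members and 14373 genes. Day 0 levels turned for H2afx (-0.053), H3f3a (-0.15) and H3f3b (-0.13), H2afv (-0.20) and H1f0 (-0.26) passed as lower there, and 5 members were called in 5F. Higher calls went from 52.5% to 29.0% in 5F, 51.4% to 1.75% in 7E, 49.9% to 20.1% at day 0 and 55.7% to 0.376% for the difference. For slopes they went from 68.6% to 84.2% in 5F, 45.5% to 72.4% in 7E and 85.7% to 75.0% at day 0. Called genes were 19 (5F, H3f3a at -0.011), 4 (day 0) and 1 (difference, H2afy at 0.029 and H2afv at 0.015), with 0 members in 7E. Medians were -0.18 (7E day 4 slope), 60.1% and 44.8% (left at 360 min, 5F day 0 and 7E day 4).
DESeq2 called 267 genes for the 7E slope change, 27 at day 0 and 4 for the difference, and 1 member for the difference in level.
The 5F slope calls, 24 slower and 11 faster, were 17 and 27 with DESeq2, 15 and 17 without the libraries low in mitochondrial counts, and 3 and 11 without the mock libraries.
Without the mock libraries, 14 genes were called in 5F (H2afz 0.0036, H1fx 0.063) and 237 genes with 0 members in 7E (H2afx 0.029, H3f3a -0.024, H1fx 0.12). There were 60 at day 0 (H3f3a 0.028) and 5 for the difference (H2afy 0.0046, H2afv 0.022, H3f3a -0.094), and median slopes were -0.10 (5F day 4), -0.13 (7E day 0) and -0.16 (7E day 4).
Without the 360 min libraries, H2afv (0.0035) and H3f3a (-0.13) turned in 5F, 84 genes and 0 members were called in 7E and 2 genes at day 0 (H2afz -0.0069), H2afy was at 0.0022 and H3f3b at -0.0028 for the difference, and the 5F day 4 median was -0.24.
Without the 6 libraries low in mitochondrial counts, 32 genes were called at day 0 (H3f3a 0.0031) and 4 for the difference (H3f3b -0.00044), and H3f3a was at -0.0044 in 5F. With TMM, H3f3a (0.0020) and H3f3b (0.0013) turned at day 0 and H3f3b (-0.00084) for the difference.
A replicate block by number across days, which were not paired, kept every call on a member and turned H3f3a in 5F (-0.00028). The block of paired clones gave 3 members and 1800 genes for day 0 slopes (H3f3b 0.0012), 1 member and 486 genes for the difference in slope change (H3f3b -0.0013), and 4 members and 4151 genes for the difference in level. It added H2afx to the day 0 levels (0.11, adjusted p = 0.00107, edgeR) and changed no other call.
Leaving out replicates gave 2 to 4 genes for the 5F slope change, with H2afz from -0.055 to 0.030, H2afv from -0.018 to 0.0051 and H3f3a from -0.040 to 0.026. In 7E it gave 26 to 51 genes and 0 to 0 members, with H1fx from -0.17 to 0.024. At day 0 it gave 0 to 0 genes, with H2afz from -0.0019 to 0.013, H3f3a from -0.030 to 0.025, H3f3b from -0.0052 to 0.00031 and H1f0 from -0.0062 to 0.018. The difference ran from -0.0058 to 0.017 (H2afx), -0.0070 to 0.0056 (H2afy), -0.0078 to 0.048 (H3f3a) and -0.013 to 0.0082 (H3f3b). Members called by level were 2 to 5 in 5F (H2afz from -0.10 to 0.037), 1 to 2 at day 0 (H3f3a from -0.09 to 0.12, H1fx from -0.027 to 0.41) and 1 to 3 for the difference (H3f3a from -0.18 to 0.071). In 7E, H3f3a ran from -0.015 to 0.24 and H1fx from -0.40 to 0.066. Median slopes ran from -0.15 to -0.12 (5F day 0), -0.18 to -0.13 (5F day 4) and -0.22 to -0.17 (7E day 4), and median shares left from 55.8% to 61.4% (5F day 0), 48.6% to 53.7% (7E day 0) and 39.9% to 47.1% (7E day 4).
Depth limits H1fx most, at 86 to 206 reads per mock library.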

Other observations

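Beyond the 8 genes, 3 of 11 other replacement or variant histone genes had counts high enough to test. H2afy2, the second macroH2A gene, moved in opposite directions with 4OHT in the mock libraries, by +0.18 ± 0.07 (SE, adjusted p = 0.0453, edgeR) in 5F and -0.33 ± 0.06 (adjusted p = 0.000203) in 7E. The difference between clones was -0.51 ± 0.09 (adjusted p = 0.000425). Cenpa, the centromeric histone H3, changed by -0.11 ± 0.05 in 5F and -0.09 ± 0.05 in 7E, and H2afj by +0.06 ± 0.08 in each, and neither passed (adjusted p = 0.177 to 0.653). None of the 3 changed in decay slope in either clone (adjusted p = 0.834 to 1).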
